A study of Mus musculus with 10 samples.

Results

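Of the 12511 regions on chromosomes 1 to 19 where the largest subunit of RNA polymerase III, Rpc155, was enriched in untreated mouse cortical neurons, 2050 (16.4%) overlapped no region of Gtf3c1, the largest subunit of the initiation factor TFIIIC, in either the untreated or the KCl list. These 2050 regions without Gtf3c1 were chosen by that overlap alone, with 1 shared base pair (bp) counted as overlap. The remaining 10461 regions, called regions with Gtf3c1 here, overlapped Gtf3c1 in both lists (7683), in the untreated list only (1859) or in the KCl list only (919). Absence of Gtf3c1 and presence of Rpc155 in untreated cells therefore describe how the regions were picked and were not tested.

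Chromatin immunoprecipitation with sequencing (ChIP-seq) was done at day in vitro 6 on cortical neurons taken from C57BL/6J mice and grown in primary culture. Cultures were kept overnight in 3% serum and then either left untreated or depolarised with 50 mM KCl for 45 min. No genotype differed between the groups. Antibodies against Rpc155, Gtf3c1, H3K27ac (a histone mark of active promoters and enhancers) and H3K4me1 (a mark of enhancers and promoter flanks) gave 1 deposited list of enriched regions per antibody and condition, 8 lists in all. The series describes 3 biological replicates per condition, but with 1 list each there is no replicate spread. Differences below are therefore given with 95% intervals that cover counting error over regions only, exact Clopper-Pearson for a share and Newcombe for a difference, and no test between the conditions was possible. The Rpc155 lists were of unequal length, with 12511 untreated and 4233 KCl regions on these chromosomes, and the depth of the libraries is unknown. As a check of the label, an untreated H3K27ac region lay within 1 kb of an end of all 5 neuronal marker genes examined (Rbfox3, Tubb3, Map2, Snap25 and Syt1). The same was true of 3 of 4 astrocyte markers (Gfap, Aqp4 and Slc1a3), 1 of 5 markers of the oligodendrocyte lineage (Mbp), 0 of 4 of microglia and 0 of 3 of endothelium. The part of other cell types in the results was not tested.

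RNA polymerase III makes short untranslated RNAs, above all transfer RNAs (tRNAs), 5S ribosomal RNA, U6 small nuclear RNA and 7SK. At tRNA genes TFIIIC binds 2 stretches inside the gene, the A box and the B box, and places TFIIIB, which in turn recruits the polymerase. Genes such as U6 and 7SK use another route, in which elements upstream of the start bind SNAPc and TFIIIC is not needed. TFIIIC is also found at many sites without the polymerase. A polymerase region with no TFIIIC in the deposited lists is thus the less usual combination for a tRNA gene.

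Letters from RefSeq (GRCm38.p6) are shown first. They set a tRNA gene beside promoter windows, so differences between them cannot be read as differences with and without Gtf3c1. Regions at tRNA genes were 1.61% of those without and 1.48% of those with Gtf3c1. No tRNA gene without Gtf3c1 is printed. For contrast, the arginine tRNA gene n-TRtcg5 (chr7:79466419-79466491, plus strand), which had both proteins, is printed whole. In it Rpc155 was enriched 50.8-fold over the local background in untreated cells and 46.7-fold with KCl, and Gtf3c1 16.3-fold and 15.4-fold. No untreated H3K27ac region lay at that gene, and with KCl one was listed at 8.0-fold. The other 4 sequences are the 250 bases before the start of genes whose promoter window held the summit of a region without Gtf3c1. They are Rapgef1 (chr2:29619470-29619719, plus strand), Fam133b (chr5:3543583-3543832, plus strand), Kcnh1 (chr1:192190527-192190776, plus strand) and the long non-coding RNA gene Gm41543 (chr17:23538674-23538923, minus strand). Capitals mark matches on either strand to the B box letters GTTCNANNC or their longer form, with one more G before and one more C after them, to the GC box GGGCGG, to the CCAAT box and to AGGGGGCGC, the core of the motif of the insulator protein CTCF.
n-TRtcg5: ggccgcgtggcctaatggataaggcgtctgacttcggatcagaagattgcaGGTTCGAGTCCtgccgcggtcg
Rapgef1: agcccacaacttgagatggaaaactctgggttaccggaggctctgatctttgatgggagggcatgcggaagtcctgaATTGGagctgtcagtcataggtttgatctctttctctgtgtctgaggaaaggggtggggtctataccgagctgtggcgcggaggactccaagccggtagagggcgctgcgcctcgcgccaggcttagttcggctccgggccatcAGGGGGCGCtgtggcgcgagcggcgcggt
Fam133b: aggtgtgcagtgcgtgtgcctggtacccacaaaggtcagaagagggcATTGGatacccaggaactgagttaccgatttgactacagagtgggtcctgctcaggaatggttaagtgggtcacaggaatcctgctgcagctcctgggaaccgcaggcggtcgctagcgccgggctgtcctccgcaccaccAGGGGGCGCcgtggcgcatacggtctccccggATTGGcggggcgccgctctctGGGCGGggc
Kcnh1: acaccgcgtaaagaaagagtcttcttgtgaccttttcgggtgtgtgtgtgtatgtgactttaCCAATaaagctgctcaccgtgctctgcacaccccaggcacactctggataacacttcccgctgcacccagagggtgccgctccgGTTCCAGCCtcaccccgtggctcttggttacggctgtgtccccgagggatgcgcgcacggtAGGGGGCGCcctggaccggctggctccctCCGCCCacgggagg
Gm41543: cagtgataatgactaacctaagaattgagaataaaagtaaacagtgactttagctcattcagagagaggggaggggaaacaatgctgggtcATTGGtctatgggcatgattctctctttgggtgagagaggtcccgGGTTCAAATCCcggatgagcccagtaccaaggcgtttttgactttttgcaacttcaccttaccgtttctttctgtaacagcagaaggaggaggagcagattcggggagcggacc

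The promoter letters of these genes go with different chromatin. At Rapgef1, which encodes a guanine nucleotide exchange factor for Rap proteins, the region (chr2:29619410-29619752) had its summit 96 bp before the gene's start, an Rpc155 fold enrichment of 7.47 untreated and 6.17 with KCl, and H3K27ac at 8.00-fold untreated and 8.78-fold with KCl. Fam133b had Rpc155 at 4.75-fold untreated and no KCl region, with H3K27ac at 7.24-fold and 12.02-fold, and its nearest Gtf3c1 region was 51957 bp away. Kcnh1, which encodes a voltage-gated potassium channel, had Rpc155 at 4.58-fold, no KCl region, and H3K27ac at 3.31-fold and 3.78-fold. The Gm41543 region (chr17:23538661-23538988) was listed in both conditions at 4.58-fold and 4.00-fold and overlapped neither histone mark in either condition. Its long B box match lay at chr17:23538777-23538787, inside the region, and the nearest annotated tRNA gene, n-TPcgg1, was 2100 bp from the summit. The printed tRNA gene n-TRtcg5 holds the long form as well. Whether the Gm41543 letters, its CCAAT match included, belong to an unannotated tRNA-like copy was not tested.

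Regions without Gtf3c1 had weaker Rpc155 signal than the others. Fold enrichment, the height of the summit relative to its surroundings as the peak caller gave it, had a median of 3.23 (2.38 to 26.8) against 3.57 in regions with Gtf3c1, and the median width was 331 bp against 435 bp. By strength, 445 of the 2050 had a fold enrichment under 3, 1410 lay between 3 and 4, 160 between 4 and 6, and 35 at 6 or over. They made up 28.9% (26.6 to 31.2%) of all untreated Rpc155 regions in the lowest range, 18.3% (17.5 to 19.2%) from 3 to 4, 5.96% (5.09 to 6.92%) from 4 to 6 and 6.00% (4.22 to 8.25%) at 6 or over. Regions under 4-fold were the majority in both groups, with 21.7% below 3 and 68.8% from 3 to 4 without Gtf3c1 and 10.5% and 60.1% with it. The median −log10 q was 2.75 without and 3.76 with Gtf3c1.

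**Figure D1:**
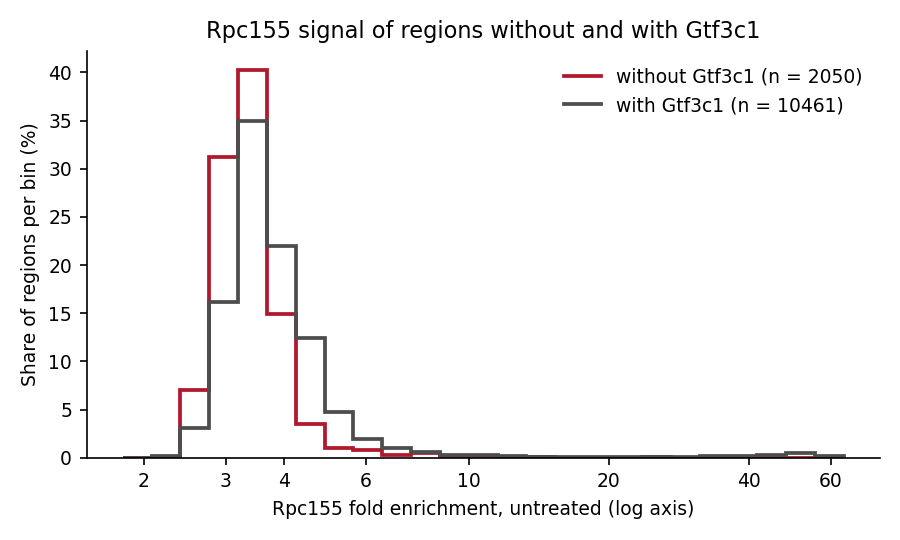
Share of Rpc155 regions (y axis, % of each group per bin) by untreated Rpc155 fold enrichment (x axis, log scale) for the 2050 regions without Gtf3c1 (red) and the 10461 with Gtf3c1 (grey). The red outline lies to the left of the grey one, with medians of 3.23 and 3.57, and regions over 30-fold occur in the grey group alone.

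Distance showed how sharp the choice was. The nearest Gtf3c1 region of either list lay a median of 914.5 bp away, under 10 bp for 35 regions, under 100 bp for 315 and under 1000 bp for 1050. On the other side of the rule, 25 regions counted as having Gtf3c1 overlapped it by under 10 bp and 434 by under 100 bp. Median Rpc155 fold enrichment was 3.23 in the 35 just inside and 3.06 in the 25 just outside.

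By position, 623 of the 2050 summits (30.4%, 28.4 to 32.4%) lay within 1 kb of an end of an annotated gene, against 38.8% of all 12511 regions and 40.5% of those with Gtf3c1, a difference of −10.1 points (−12.3 to −7.85). This order did not hold in the stronger regions: the difference was 0.57 points (−6.88 to 8.52) from 4- to 6-fold, and at 6 or over it turned, with 77.1% without against 54.2% with Gtf3c1. With Rpc155 regions held to a q of 1e-05 it turned as well, at 44.0% against 40.5%. Every region at a tRNA gene counted as near a gene end, since the tRNA gene itself supplies the end. At 6 or over, 25 of the 35 regions without and 153 of the 548 with Gtf3c1 were at tRNA genes. Without regions at tRNA genes, over all strengths, the shares were 29.3% and 39.6%. The strong regions were not read apart from tRNA genes, so neither turn describes strong regions elsewhere. Counted separately, 420 summits (20.5%, background 29.5%) lay within 1 kb of an annotated start site, starts of other transcripts inside a gene included. Summits over 1 kb from gene ends fell into 763 (37.2%, background 36.8%) deeper inside genes and 664 (32.4%, background 24.4%) outside genes. Of the 420 near start sites, 68 were also among the 763. The share inside genes differed from that of regions with Gtf3c1 by 0.48 points (−1.78 to 2.79), and the share outside genes by 9.6 points (7.45 to 11.8). Regions without Gtf3c1 made up from 13.1% (10.6 to 15.8%, chromosome 3) to 19.6% (16.4 to 23.2%, chromosome 12) of the Rpc155 regions on each chromosome.

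H3K27ac was less frequent at regions without Gtf3c1 than at those with it. In untreated cells 1304 of 2050 (63.6%, 61.5 to 65.7%) overlapped an H3K27ac region, against a background of 80.7% and against 84.0% of regions with Gtf3c1, a difference of −20.4 points (−22.6 to −18.2). With KCl the count was 1343 (65.5%, background 80.6%), a difference of −18.0 points (−20.2 to −15.9) from the 83.5% of regions with Gtf3c1. Where a region was present its signal was also lower: the overlapping H3K27ac region had a median fold enrichment of 4.80 untreated and 5.27 with KCl, against 6.36 and 7.97 at regions with Gtf3c1.

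Because the 2 groups differed in Rpc155 strength, they were also read within ranges of fold enrichment. Untreated H3K27ac lay at 56.9% against 81.2% below 3, at 67.0% against 86.2% from 3 to 4, at 65% against 81.8% from 4 to 6, and at 5.71% against 74.5% at 6 or over. In each range the interval of the difference was below 0, from −24.4 points (−29.5 to −19.2) in the weakest to −68.7 points (−74.1 to −55.3) in the strongest. Among narrow weak regions, under 400 bp wide and under 4-fold, the shares were 60.8% of 1364 and 79.9% of 3704. The strongest range held 35 regions without Gtf3c1, most of them at tRNA genes.

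**Figure D2:**
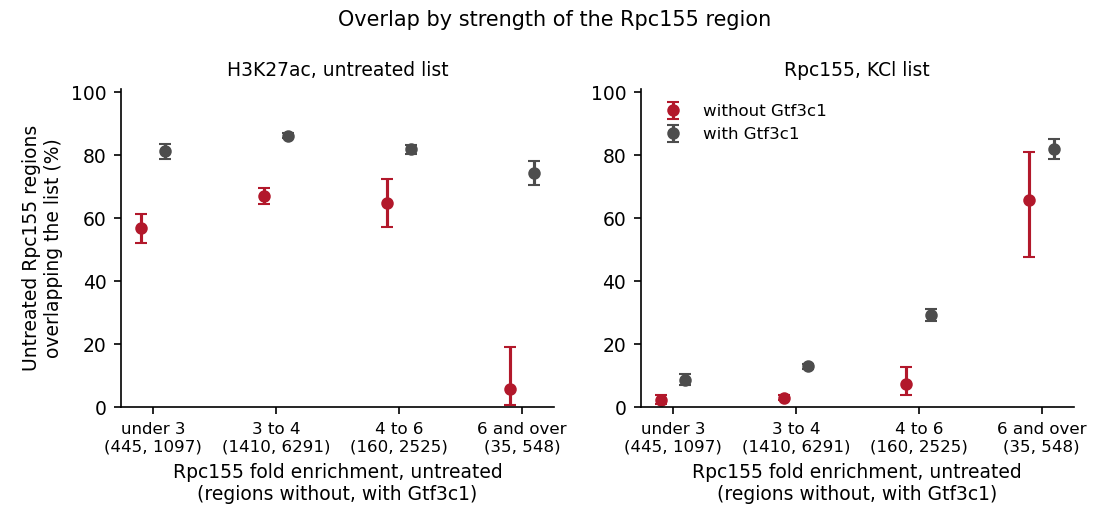
Share of untreated Rpc155 regions that overlap an untreated H3K27ac region (left, y axis in %) or a KCl Rpc155 region (right, same axis) in 4 ranges of untreated Rpc155 fold enrichment (x axis, with the number of regions without and with Gtf3c1), for regions without (red) and with Gtf3c1 (grey). Bars are exact 95% intervals of counting error, and red lies below grey in every range of both panels, as at 3 to 4 with 67.0% against 86.2% for H3K27ac.

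H3K4me1 did not follow H3K27ac. It overlapped 1803 of the 2050 regions in untreated cells (88.0%, 86.5 to 89.3%, background 83.2%) and 1825 with KCl (89.0%, background 86.3%). Regions with Gtf3c1 had it at 82.2% and 85.8%, differences of 5.73 points (4.08 to 7.26) and 3.23 points (1.66 to 4.68). The sign of the difference changed with position and with Rpc155 strength, and the cause was not tested. Within 1 kb of gene ends 82.0% of regions without and 66.4% of regions with Gtf3c1 had untreated H3K4me1, while over 1 kb from gene ends the order turned, at 90.5% against 93.0%, a difference of −2.41 points (−4.15 to −0.85). From 4- to 6-fold the difference was 0.77 points (−5.80 to 5.81), and at 6 or over it was −24.5 points (−41.0 to −8.88). With Rpc155 regions held to a q of 1e-05 the untreated order also turned, at 79.4% of 209 regions against 83.0%.

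**Figure D3:**
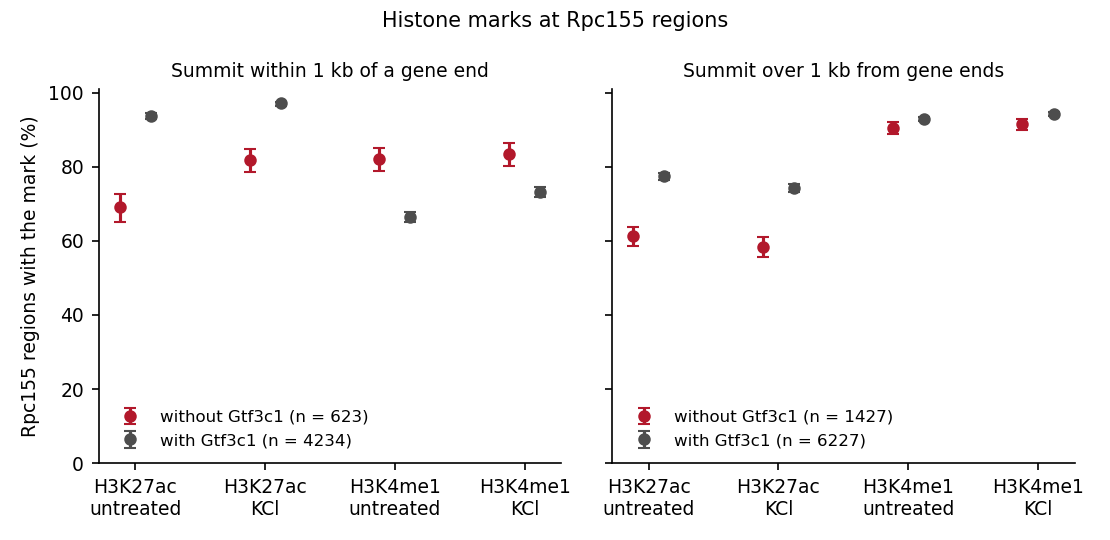
Share of Rpc155 regions (y axis, %) that overlap H3K27ac or H3K4me1 in untreated and KCl cells, for summits within 1 kb of a gene end (left) and farther away (right), without (red) and with Gtf3c1 (grey). Bars are exact 95% intervals of counting error. H3K27ac was lower without Gtf3c1 in both panels, and H3K4me1 was higher on the left (82.0% against 66.4% untreated) and slightly lower on the right (90.5% against 93.0%).

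In combination, the marks split the 2050 untreated regions into 1201 with both (58.6%, background 66%), 602 with H3K4me1 alone (29.4%, background 17.1%), 103 with H3K27ac alone (5.02%, background 14.6%) and 144 with neither (7.02%, background 2.22%). H3K4me1 alone, the usual pattern of an enhancer that is marked but not acetylated, differed from regions with Gtf3c1 by 14.6 points (12.6 to 16.8). H3K27ac alone differed by −11.5 points (−12.6 to −10.2). The usual pattern of an active enhancer was taken as an untreated H3K4me1 region that overlaps H3K27ac and lies at least 1 kb from every gene end. Of the 2050 regions 831 overlapped one (40.5%, background 40.4%), a difference of 0.18 points (−2.13 to 2.51). Among summits over 1 kb from gene ends alone the shares were 58.1% without and 67.3% with Gtf3c1, a difference of −9.24 points (−12.1 to −6.45).

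Acetylation at these regions was lower the farther the nearest Gtf3c1 region lay. Untreated H3K27ac was present at 81.0% (76.2 to 85.1%) of the 315 regions under 100 bp from Gtf3c1, 78.5% (75.4 to 81.4%) of the 735 at 100 bp to 1 kb, 51.5% (46.7 to 56.2%) of the 441 at 1 to 10 kb and 43.8% (39.7 to 48.1%) of the 559 at 10 kb or more. Intervals of the 2 nearer classes overlapped, and both lay above those of the 2 farther classes. H3K4me1 had a narrower range, from 91.0% at 100 bp to 1 kb to 83.4% at 10 kb or more. The median Rpc155 fold enrichment was 3.23 in all 4 classes, a value that many regions share. From the nearest to the farthest class, 0, 3, 23 and 7 regions were at tRNA genes. The share within 1 kb of a gene end was 34.9%, 33.9%, 25.9% and 26.8%. The part of strength and position in the acetylation was not tested.

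**Figure D4:**
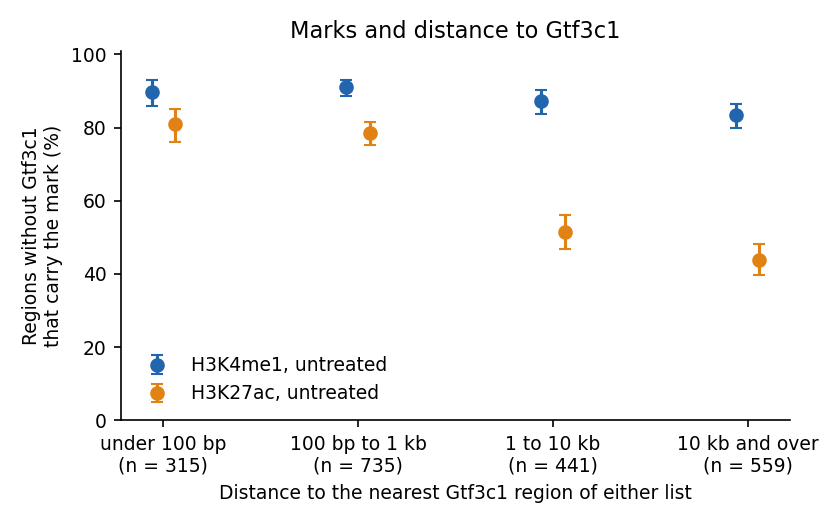
Share of the 2050 regions without Gtf3c1 (y axis, %) that overlap untreated H3K4me1 (blue) or H3K27ac (orange), by distance to the nearest Gtf3c1 region of either list (x axis, with the number of regions). Bars are exact 95% intervals of counting error. H3K27ac lies near 80% in both classes under 1 kb and at 51.5% and 43.8% beyond, and H3K4me1 stays above 80% in all 4.

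After KCl, 88 of the 2050 regions without Gtf3c1 (4.29%, 3.46 to 5.26%) overlapped a KCl Rpc155 region, against a background of 17.5% and 20.1% of regions with Gtf3c1, a difference of −15.8 points (−16.9 to −14.6). The order was the same from 3- to 4-fold (3.05% against 12.99%), from 4- to 6-fold (7.5% against 29.3%) and at 6 or over (65.7% against 82.1%). The share was 17.2% against 38.2% with Rpc155 regions held to a q of 1e-05, and 13.3% against 34.0% with the untreated list shortened to the length of the KCl list. Because the KCl list held 4233 regions to the untreated 12511, absence from it is not a measured loss. Among the 88, median fold enrichment was 3.71 untreated and 3.81 with KCl, and 42 were higher and 46 lower with KCl (median log2 ratio −0.02, range −1.001 to 0.82). The 68 of them away from annotated tRNA genes had medians of 3.55 and 3.63. When the same rule was applied to the KCl list, 507 of 4233 regions (11.98%, 11.01 to 12.99%) had no Gtf3c1 in either list, and 74 of these overlapped a region without Gtf3c1 of the untreated list.

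Within 1 kb of start sites 79.0% of the 420 regions without Gtf3c1 had untreated H3K27ac and 92.9% had it with KCl, against 96.7% and 99.4% of regions with Gtf3c1. Over 1 kb from gene ends the shares were 61.2% untreated and 58.4% with KCl, against 77.4% and 74.3%. The difference between the 2 kinds of site was not tested. Over both conditions, 191 regions were acetylated with KCl alone (9.32%, background 5.4%) and 152 in untreated cells alone (7.41%, background 5.48%). Of the 602 regions with H3K4me1 alone in untreated cells, 180 overlapped H3K27ac with KCl (29.9%, 26.3 to 33.7%), close to the 29.3% of regions with Gtf3c1, a difference of 0.61 points (−3.60 to 4.99). Of the 144 with neither mark, 11 did so (7.64%, 3.87 to 13.3%) against 25.4% (18.3 to 33.6%).

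Where H3K27ac was listed in both conditions, its fold enrichment near start sites had a median of 5.71 untreated and 7.60 with KCl over 332 regions without Gtf3c1 (median log2 ratio 0.40, middle 50% from 0.15 to 0.65). For 3151 such regions with Gtf3c1 the medians were 7.36 and 10.5 (0.48). At the other 820 regions without Gtf3c1 they were 4.82 and 4.86 (0.04). The Slc39a10 region, in the gene of a zinc transporter and chosen after its values were seen, had no untreated H3K27ac region and one at 11.1-fold with KCl, while its Rpc155 fold enrichment was 5.09 and 4.18.

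Transfer RNA genes held the strongest regions without Gtf3c1. Of the 391 nuclear tRNA genes on these chromosomes, 265 (67.8%) had an untreated Rpc155 region on the gene or within 200 bp of it. For 34 of the 265 (12.8%) that region was without Gtf3c1, and because 1 region covered a pair of genes they came to 33 regions (1.61% of the 2050, background 1.5%). Their untreated Rpc155 fold enrichment had a median of 7.81 (2.77 to 26.8), against 46.5 (4.86 to 62.3) for the other 231 genes. The rule thus picked tRNA genes with far lower listed Rpc155 enrichment than most, while the median of all 2050 regions was 3.23. At 33 of the 34 genes no Gtf3c1 region touched the gene or its 200 bp flanks. The exception was n-TGgcc13, a glycine tRNA gene whose flank, but not its Rpc155 region, touched one.

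The methionine tRNA gene n-TMcat2 had the highest value, 26.8-fold untreated and 19.9-fold with KCl, in a region at chr13:21906755-21907477. Next to it lay the lysine tRNA gene n-TKttt23 (chr13:21907747-21908125), at 15.1-fold and 10.2-fold. A lysine tRNA gene on another chromosome, n-TKctt15 (chr3:96428081-96428606), had 15.1-fold and 9.39-fold. These 3 regions were lower with KCl. The alanine tRNA gene n-TAagc18 (chr13:21242405-21242926) had 12.4-fold and 8.90-fold, and the glycine tRNA gene n-TGccc6 (chr3:96423876-96424281) had 10.6-fold and 9.38-fold. By contrast, the region shared by the valine gene n-TVaac2 and the alanine gene n-TAagc12 (chr13:23400617-23401460) was higher with KCl, at 10.9-fold and 13.1-fold.

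KCl Rpc155 was listed at 21 of the 34 genes (61.8%, 43.6 to 77.8%, background 94%) and at 228 of the 231 others. Within ranges of untreated Rpc155 this gap was not seen. From 10- to 30-fold KCl Rpc155 was listed at 7 of 7 genes without and 36 of 36 with Gtf3c1. Below 10-fold it was listed at 14 of 27 (51.9%, 31.9 to 71.3%) and 2 of 5 (40%, 5.27 to 85.3%). Across the 20 regions at tRNA genes listed in both conditions the median was 8.55-fold untreated and 8.13-fold with KCl, with 6 higher and 14 lower (median log2 ratio −0.35). The 13 genes with no KCl region included the cysteine gene n-TCgca47 at 8.49-fold untreated, n-TGgcc13 at 7.21-fold and the glutamine gene n-TQctg4 at 6.45-fold.

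None of the 34 tRNA genes had untreated H3K27ac on the gene or its 200 bp flanks (0%, up to 10.3%, background 59.6%), while 158 of the 231 others did (68.4%). With KCl, 2 had it (background 76.6%), n-TQctg1 at 2.97-fold and n-TWcca8 at 3.11-fold, against 201 of the 231. H3K4me1 was present at 17 of 34 in untreated cells (50%, 32.4 to 67.6%, background 46%) and at 105 of the 231 (45.5%). Counted by Rpc155 region instead of by gene, the order turned, at 17 of 33 (51.5%) without and 111 of 155 (71.6%) with Gtf3c1. That difference was −20.1 points (−37.6 to −2.42), and with KCl the shares were 48.5% and 76.8%. Median widths of these regions were 406 and 991 bp, and the part of width was not tested. Rpc155 signal differed greatly between the 2 kinds of tRNA gene, so they were also compared within ranges. From 10- to 30-fold 0 of 7 genes without and 10 of 36 with Gtf3c1 had untreated H3K27ac, and below 10-fold 0 of 27 and 2 of 5. The exact upper limits for 0 of 7 and 0 of 27 were 41.0% and 12.8%, so at matched strength the data cover few genes. On chromosome 13 alone the counts were 0 of 17 and 29 of 79.

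**Figure D5:**
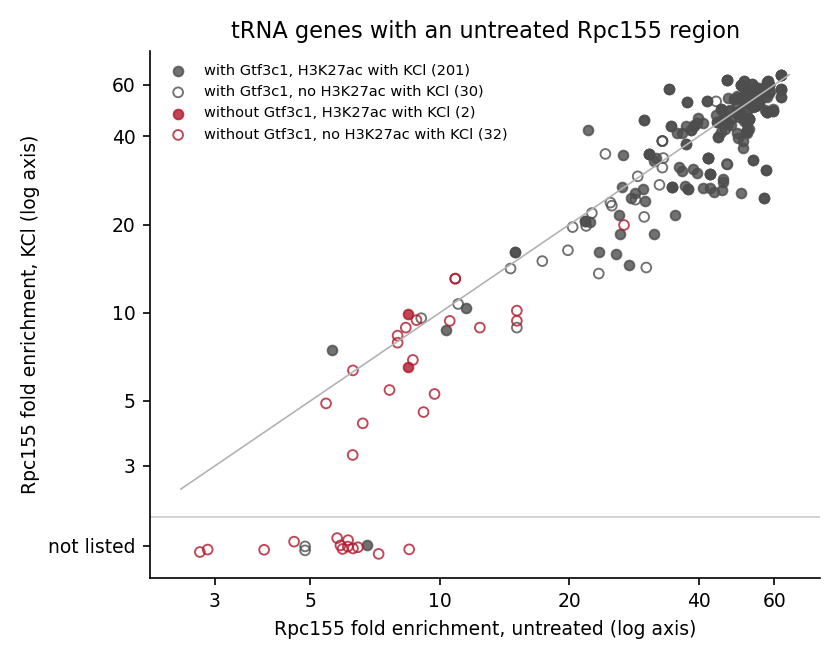
Untreated (x axis) and KCl (y axis) Rpc155 fold enrichment, both on log scales, of the 265 tRNA genes with an untreated Rpc155 region. Red marks the 34 genes whose region was without Gtf3c1 and grey the 231 others, filled where an H3K27ac region lay at the gene with KCl, and genes with no KCl Rpc155 region are placed at the bottom with slight random height. Red points lie between 2.77- and 26.8-fold untreated and all but 2 are open, while 201 of the grey points are filled.

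The 34 genes lay on 9 chromosomes. Of the tRNA genes with Rpc155 on each, they were 17 of 96 on chromosome 13, 7 of 24 on chromosome 3, 2 of 21 on chromosome 1, 2 of 5 on chromosome 9, 2 of 10 on chromosome 17, and 1 each of 41, 2, 4 and 5 on chromosomes 11, 12, 6 and 8, against 12.8% of all 265. By amino acid, glutamine had 6 (of 12 with Rpc155), lysine 5 of 16, glycine 4 of 20, and serine 3 of 17, and tryptophan 3 of 7. Arginine had 0 of 22, glutamate 0 of 12 and aspartate 0 of 10. Since tRNA genes of one family are near copies of each other, their values are uncertain where reads match several copies. The sources used here do not state the authors' placement of such reads, and its part in these counts was not tested.

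Of 10 genes for non-tRNA products of the polymerase, 9 had Rpc155 together with Gtf3c1 within 5 kb and 0 had a region without it, where the share over protein-coding genes was 4.51%, so a count of 0 among 10 is near the background. None of the 931 annotated small nuclear, 1286 small nucleolar or 61 ribosomal RNA genes had a region without Gtf3c1 on it. An Rpc155 region with Gtf3c1 lay on 28, 15 and 0 of them, so no annotated ribosomal RNA gene had a listed untreated Rpc155 region. Placement of reads that match several copies is not stated, so absence from the list does not show absence of the polymerase. Over all untreated Rpc155 regions, 16.4% were without Gtf3c1.

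Outside tRNA genes, 10 regions without Gtf3c1 reached 6-fold. The strongest (chr8:24253321-24253812) had 10.5-fold, lay 95726 bp from the nearest gene, had H3K4me1 at 2.84-fold in untreated cells as its sole mark and was not listed with KCl. A region 1130 bp from the non-coding RNA gene Snhg7os (chr2:26646830-26647232) had 8.15-fold untreated and 4.12-fold with KCl and no mark in any list. Others at 6-fold or over lay in Arhgef37 (7.64), near Rapgef1 (7.47), near Ppm1k (6.96) and near Gm12509 (6.79), the last also listed with KCl at 4.18-fold. The remaining 4, at 6.11 to 6.28, lay in Mapkbp1, in Pla2g4e, 48361 bp from Mir7688 and 11559 bp from Gapt. For the last pair a predicted gene model had a nearer end, at 35867 bp and 10335 bp. Only those at Rapgef1 and Ppm1k had untreated H3K27ac.

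Regions free of both marks in both conditions numbered 93 (4.54%, 3.68 to 5.53%), against a background of 1.2% and 0.54% of regions with Gtf3c1. Their share was 11.5% with Rpc155 regions held to a q of 1e-05, 9.21% with lists of equal length and 7.7% at 1 kb or more from Gtf3c1. They had a median fold enrichment of 3.40, 14 lay at tRNA genes and 10 were listed with KCl. Among the strongest after that of n-TKctt15 were the Rpc155 regions at the tRNA genes n-TWcca4 (9.17-fold, with H3K4me1 at 5.69-fold beside the region, in the gene's flanks), n-TMcat10 (8.83-fold), n-TTagt3 (7.98-fold) and n-TSaga6 (6.28-fold).

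Of 20665 protein-coding genes, 933 (4.51%) had the summit of a region without Gtf3c1 within 5 kb of an end, and the gene lists held few of them. Immediate-early genes, which are switched on within minutes of activity, had 1 of 32. It was Arc (chr15:74673089-74673454), whose product regulates synaptic strength, with Rpc155 at 3.23-fold untreated and no KCl region. The H3K27ac region there had 3.43-fold untreated and 9.32-fold with KCl. Delayed activity-regulated genes had 2 of 19. Grasp, a scaffold of glutamate receptors, had H3K27ac at 2.54-fold and 9.59-fold, and Mmp9, a matrix protease, had none in untreated cells and 7.16-fold with KCl. Both had Rpc155 at 3.06-fold untreated and none with KCl. By comparison, 51 of the 1152 regions without Gtf3c1 with H3K27ac in both lists were over 2-fold higher with KCl.

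Synaptic genes had 1 of 19, Gad1, which encodes an enzyme of GABA synthesis, with Rpc155 at 3.91-fold. The polymerase's own machinery had 2 of 31: Polr3gl, a polymerase subunit (2.89-fold), and Snapc3, a subunit of SNAPc (3.06-fold). Neuronal genes had 1 of 14, Fezf2, which encodes a transcription factor of deep-layer cortical neurons (3.06-fold). Polr3gl and Fezf2 each also had an Rpc155 region with Gtf3c1 within 5 kb. Their regions without it lay 3294 and 441 bp from the nearest Gtf3c1 region. Oligodendrocyte lineage genes had 3 of 6, namely Mbp (3.57-fold, with both marks), Olig2 (3.40-fold, no mark) and Pdgfra (3.74-fold, H3K4me1 alone). The translation and ribosome (20 genes), astrocyte (7), microglia (7), endothelium (6) and non-neural tissue (10) lists had 0 each. None of these named regions was listed with KCl, and all were below 4-fold.

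The 300-base promoter windows of 103 genes (81 protein-coding and 22 long non-coding) held the summit of a region without Gtf3c1. Their regions had a median fold enrichment of 3.40 (2.42 to 7.47), 80 of the 103 had untreated H3K27ac and 6 were listed with KCl. Median GC content was 59% against 60.7% in the 1319 windows with a summit of a region with Gtf3c1 and 52.7% in all 25748 windows. The observed over expected count of CpG was 0.69, 0.82 and 0.39. GC boxes (GGGCGG) occurred in 45.6% (35.8 to 55.7%) of the 103, 59.4% of the 1319 and 36% of all windows. The letters CCGGAA, the core of ETS factor sites, occurred in 26.2% (18.0 to 35.8%), 37.7% and 15.3%. TATAAA was found in 5.83%, 5.31% and 14.2%, and CCAAT in 26.2%, 32.4% and 37.7%. All searches covered both strands, and a match describes letters and not binding.

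The B box letters GTTCNANNC were in 6 of the 103 windows (5.83%, 2.17 to 12.2%), against 9.78% of windows with Gtf3c1 and 9.18% of all windows. Their longer form, which contains the shorter one, was in 1, that of Gm41543 printed above, against 0.99% and 0.781%. The cyclic AMP response element TGACGTCA was in 3.88%, 5.00% and 1.82%. The AP-1 site TGANTCA was in 7.77%, 5.23% and 7.97%, and the E-box CACGTG in 7.77%, 9.25% and 7.11%. The 95% intervals of these shares were wide with 103 windows.

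AGGGGGCGC was searched after the printed sequences had been seen, so its counts are a description. It was in 7 of the 103 windows (6.80%, 2.78 to 13.5%), 2.65% (1.86 to 3.67%) of the windows with Gtf3c1 and 1.22% of all windows. The genes were Rapgef1, Fam133b, Kcnh1, Ap3b1, Oxct1, Irak3 and Phf24, with Rpc155 at 3.06- to 7.47-fold. At 4-fold or over it was in 4 of 22 windows (18.2%, 5.19 to 40.3%) against 10 of 478 with Gtf3c1 (2.09%, 1.01 to 3.81%). All of these 4 but Ap3b1 are the printed promoters in which the letters were first seen. The higher share in this range therefore cannot be told apart from how the letters were found, and its cause was not tested. Below 4-fold it was in 3 of 81 (3.70%, 0.77 to 10.4%) against 25 of 841 (2.97%, 1.93 to 4.36%).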

How the data were processed

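Per the submitters' processing notes, Bowtie2 did the alignment, MACS2 called the peaks and the build was GRCm38/mm10. Tool versions, and whether replicates were pooled, are not stated in the labels. The deposited lists give per region a position and summit, a fold enrichment (a ratio of summit height to local background), a −log10 p and −log10 q, and a score made from the −log10 q by the authors' peak caller. These values describe, rank or filter regions and were not adjusted between libraries. The lists hold no read counts, so depth is unknown. Input libraries were not analysed here.

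Overlaps of at least 1 bp, distances and intervals were computed with Python 3.11.15, numpy 2.4.6, pandas 2.3.3 and scipy 1.17.1, and the functions were tested on simulated data. Figures used matplotlib 3.10.9. Genes, start sites and promoter letters came from RefSeq tables of GRCm38.p6. A start site was used where a table gave a strand, for 17492 of 21887 protein-coding genes. Of 197 listed genes, 196 matched. The housekeeping list is not reported here. Named regions were those at RNA polymerase III genes, the 20 of lowest q, the 10 of lowest q in the KCl list, outside it and without marks, and members of the gene lists within 5 kb. Regions at 6-fold or over away from tRNA genes, the promoters printed and Slc39a10 were chosen after their values were seen. The regions and gene lists were chosen with earlier results of these data known.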

Additional observations from a re-analysis of the deposited data

How the results depend on the processing

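Values below are for regions without Gtf3c1, against regions with Gtf3c1 only where said. At an Rpc155 q of 1e-05 or lower, 209 remained, with median fold 4.24, KCl Rpc155 17.2%, H3K27ac 54.5% untreated and 59.3% with KCl, H3K4me1 79.4% and 78.0%, no mark 11.5%, gene ends within 1 kb 44.0% (40.5% with Gtf3c1) and active distal sites 32.1%. Cutting the untreated list to the length of the KCl list left 315, with median fold 4.07, KCl Rpc155 13.3%, untreated H3K27ac 59.0%, H3K4me1 81.3% and 82.5%, no mark 9.21%, gene ends 39.4% and active distal sites 34.9%. Asking for Gtf3c1 overlap of 50% of the shorter region gave 2963 regions, with KCl Rpc155 5.26%, H3K27ac 70.1% and 71.7%, no mark 3.27% and gene ends 34.2%. Keeping a distance of at least 1 kb gave 1000 regions, with H3K27ac 47.2% and 48.6%, H3K4me1 85.1% and 86.1%, no mark 7.7%, gene ends 26.4% and active distal sites 35.6%. Counting only Gtf3c1 regions with a q of 1e-05 or lower gave 3329 regions, with median fold 3.26, KCl Rpc155 5.53%, H3K27ac 71.8% and 74.2%, no mark 3.03% and gene ends 35.6%. Asking for 50% overlap with the marks gave H3K27ac 55.4% and 58.5% and H3K4me1 79.3% and 81.3%. A distance of 5 kb gave gene ends 52.6% and active distal sites 30.1%. As alternatives chosen after seeing the data, the summit inside the other region gave KCl Rpc155 3.12%, H3K27ac 54.8% and 58% and H3K4me1 78.7% and 80.8%, and leaving out tRNA genes gave KCl Rpc155 3.37%. The remaining alternatives stayed within counting error of the values reported.

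KCl Rpc155 and H3K27ac in both conditions were lower than at regions with Gtf3c1 under all 9 alternatives. H3K4me1 kept its order in 7 of 9 untreated and 6 of 9 with KCl, gene ends in 7 of 8 and active distal sites in 3 of 8; the cause was not tested. The number of tRNA genes was 31 to 36. No paired analysis was possible because each condition had 1 list and the labels carry no replicate numbers. Differences between cultures or in depth cannot be told apart from differences between untreated and KCl lists.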

Other observations

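Some regions without Gtf3c1 lay close together. Of neighbouring pairs, 88 had summits under 10 kb apart, while the median distance between neighbours was 576621 bp, and 24 of the regions in such pairs were at tRNA genes. No such count is given for regions with Gtf3c1, so the spacing cannot be called particular to regions without it. Between 21 and 24 Mb of chromosome 13, which holds tRNA and histone genes, 20 of 90 Rpc155 regions were without Gtf3c1, against 107 of 634 (16.9%) on the whole chromosome.

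A few annotated genes for small or miscellaneous RNAs had a region without Gtf3c1 on them: the microRNA gene Mir1956 of 1136 microRNA genes, and 3 of 90 miscellaneous RNA genes (A830031A19Rik, Gm4107 and 4932431P20Rik). For comparison, 28 microRNA genes had an Rpc155 region with Gtf3c1. Long non-coding RNA genes had one in 315 of 12408 cases, and 1355 had a region with Gtf3c1.

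The H3K4me1 signal, where listed in both conditions, had a median fold enrichment of 7.83 untreated and 8.30 with KCl over 1743 regions without Gtf3c1 (median log2 ratio 0.08), and 9.24 and 9.54 over 8377 with it (0.07).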
